A study of Homo sapiens with 4 samples.

Results

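Heat shock chaperones are abundant proteins that help other proteins to fold and that rise in stressed cells. Members of the Hsp70 family bind unfolded segments, J-domain proteins such as DNAJB1 deliver clients to them, and nucleotide exchange factors such as HSPH1 make them let go. Hsp90 proteins finish the folding of kinases and receptors in the cytosol, and the chaperonin HSPD1 (Hsp60) folds proteins inside mitochondria. N6-methyladenosine (m6A) is a methyl mark on adenosines of messenger RNA. In heat-shocked cells, m6A in the 5′ untranslated region of Hsp70 mRNA has been linked to translation that does not depend on the cap.

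Peaks of m6A were examined in 8 chaperone genes, namely HSPA8, HSPA1A, HSPA1B, DNAJB1, HSPH1, HSP90AA1, HSP90AB1 and HSPD1. The genes were chosen by name with earlier peak results of these data known, and a peak was assigned to a gene when its summit lay inside that gene's hg19 span, with span edges rounded to 1 kb. This rule gave 10 of 52188 peaks in cells given chenodeoxycholic acid (CDCA, a primary bile acid) and 4 of 63093 peaks in control cells. Both groups were GES-1 cells, labelled a human gastric epithelial line and grown in RPMI-1640 medium. The CDCA group had received 100 µM CDCA for 48 h, and the control group no treatment. The series held 4 samples, an m6A immunoprecipitation and an input library for each group, of which the immunoprecipitation peak lists were analysed. With 1 library per condition the comparison has no replicates and no p-value, and all values below are descriptions. Peak lists give no expression levels against which the cell line could be checked, and they carry neither gene names nor strand. Whether a peak lay in an exon, an intron or an untranslated region was not analysed here.

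The −log10 q and the fold enrichment (height over local background) are the authors' own values for each peak, and they rank peaks within one list only. The number of fragments at the summit was recovered from the deposited height, taking the step between heights as 1 fragment, and its interval is an exact 95% Poisson interval that covers counting error only. The local background, the height to be expected without enrichment, was recovered from height and fold enrichment and is on the authors' scale. The median peak of the CDCA list had 31 fragments, a background of 1, a fold of 8.63 and a −log10 q of 14.4. In the control list these medians were 30 fragments, 1.36, 9.67 and 19.9.

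Promoters of 7 of these 8 genes held the short inverted repeats that heat shock factor 1, the main activator of chaperone genes, is known to bind. They are shown as background. As the genes were chosen by name as heat shock chaperones, such repeats are no independent finding, and a link to m6A was not tested. The windows of HSPA1A and HSPA1B lie before the start sites, so they do not show how far the peaks of these genes can be told apart. All sequences are from RefSeq, build GRCh38.p14, 5′ to 3′ on the strand of the gene, with each GAANNTTC or TTCNNGAA in capitals. Both motifs read the same on either strand, and where 3 triplets alternate the motifs overlap. The 250 bases before the start sites of HSPA1A (chr6:31815293-31815542, plus strand) and HSPA1B (chr6:31827488-31827737, plus strand) are given first.

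HSPA1A: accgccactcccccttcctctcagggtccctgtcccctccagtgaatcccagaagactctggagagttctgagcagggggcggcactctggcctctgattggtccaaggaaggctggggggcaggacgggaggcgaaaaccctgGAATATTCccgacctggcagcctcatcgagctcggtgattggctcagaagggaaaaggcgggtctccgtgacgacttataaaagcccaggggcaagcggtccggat

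HSPA1B: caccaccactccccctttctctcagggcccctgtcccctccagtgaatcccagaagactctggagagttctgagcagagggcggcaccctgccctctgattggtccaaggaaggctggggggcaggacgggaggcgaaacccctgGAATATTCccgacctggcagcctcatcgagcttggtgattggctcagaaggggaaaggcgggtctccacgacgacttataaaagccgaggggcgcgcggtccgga

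These 2 upstream windows were identical at 235 aligned bases, with 14 mismatches and 2 gap bases (93.6% identity). Both held the same 8 capital letters. Short stretches around the motifs of 5 other genes follow, for HSPA8 (chr11:123062348-123062372), DNAJB1 (chr19:14518461-14518480), HSP90AA1 (chr14:102087114-102087138) and HSPD1 (chr2:197500062-197500090), all on the minus strand, and for HSP90AB1 (chr6:44247772-44247796, plus strand).

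HSPA8: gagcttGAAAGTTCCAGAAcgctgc

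DNAJB1: ggggcgGAAGGTTCtggagg

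HSP90AA1: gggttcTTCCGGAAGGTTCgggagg

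HSPD1: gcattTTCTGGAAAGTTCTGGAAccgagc

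HSP90AB1: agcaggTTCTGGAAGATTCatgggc

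At least one of the motifs stood within 250 bases before a RefSeq start site in 7 of the 8 genes, HSPH1 being the exception, against 14% of 27305 genes with such a window. A run of 3 alternating triplets was found in HSPA8, HSP90AA1, HSP90AB1 and HSPD1, against 0.557% of all genes. The members had 14 windows in all, since several have more than one start site, and 7 of these windows held a motif, against 11.6% of all 35116 windows. Since the genes were chosen as heat shock chaperones, nothing is read from these shares. The sequences beneath the peaks themselves were not analysed here.

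Across the 8 genes, m6A peaks were listed in 6 genes in CDCA-treated cells (HSPA8, HSPA1A, HSPA1B, DNAJB1, HSPH1 and HSP90AA1) and in 3 genes in control cells (HSPA8, DNAJB1 and HSPH1). HSPD1, the mitochondrial member, and HSP90AB1 had no listed peak in either library. Every peak counted here thus had its summit inside the span of a cytosolic chaperone gene. Merging overlapping intervals left 2 sites listed in both libraries, 8 in CDCA-treated cells alone and 2 in control cells alone. The higher CDCA number depended on the level of −log10 q, which ran from 6.95 to 31.9 over the 8 CDCA-only peaks. From 20 upward there were 5 CDCA and 4 control peaks, at a level that 33.8% of all CDCA and 49.8% of all control peaks reached. From 50 upward there were 2 CDCA and 4 control peaks, against 13.4% of all CDCA and 15.3% of all control peaks. One level thus took away a larger part of the CDCA list than of the control list. Leaving out HSP90AA1, chosen after its values were seen, gave 5 CDCA and 4 control peaks. The plot of peak strength by gene shows this spread.

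**Figure D1:**
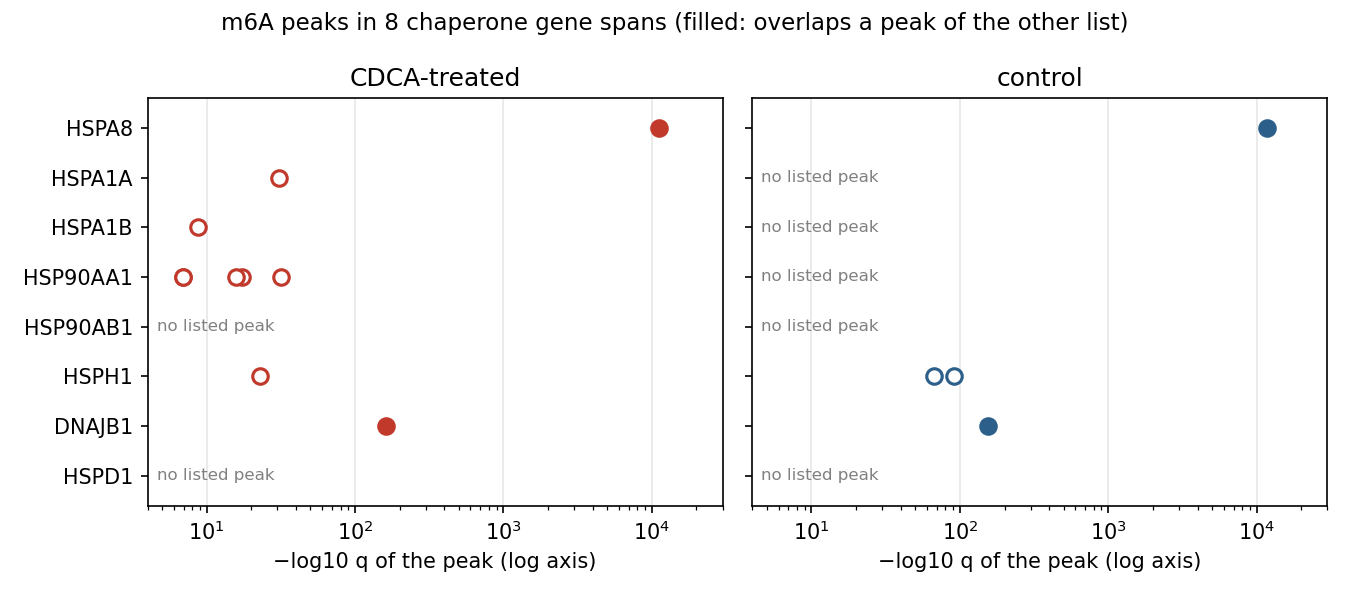
Significance (−log10 q, log axis) of every listed m6A peak in the 8 chaperone gene spans, in CDCA-treated cells (left) and control cells (right). Filled points overlap a peak of the other list and open points do not. HSPA8 stands at 11248 in CDCA-treated and 11821 in control cells, and the 5 HSP90AA1 peaks of the CDCA list lie between 6.95 and 31.9.

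In the CDCA list, 2 of the 10 chaperone peaks (20%, exact Clopper-Pearson 95% interval 2.52 to 55.6) overlapped a control peak by at least 1 bp, against 22.2% of all CDCA peaks. In the control list, 2 of 4 (50%, 6.76 to 93.2) overlapped a CDCA peak, against 18.2% of all control peaks. These intervals hold the share of the whole list, and the peaks are few. The intervals also treat peaks as independent, although 5 of the 10 CDCA peaks lay in HSP90AA1. With genes chosen knowing peak results, nothing about the chaperones is read from them. A −log10 q of 100 or more was reached by 2 of 10 peaks in CDCA-treated cells, against 7.9% of all CDCA peaks, and 2 of 4 in control cells, against 7.77% of all control peaks. In each list these were the peaks of HSPA8 and DNAJB1, which were also the shared ones. As strength bore on the choice of genes, nothing is read from these counts.

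HSPA8, the constitutive Hsp70 that also uncoats clathrin vesicles, carried the outstanding peak of the group. In CDCA-treated cells its peak spanned 122928176 to 122928585 on chromosome 11 and in control cells 122928177 to 122928575, with summits 3 bp apart. The summit lay 0.4 kb from the 3′ edge of the span of 6 kb in both. It held 20169 fragments (19892 to 20449) in CDCA-treated cells and 17584 (17325 to 17846) in control cells. The deposited heights, scaled per list, ran the other way, at 12901 in CDCA-treated and 15166 in control cells. With read depth unknown, neither order shows in which cells the peak was taller. This was the only listed HSPA8 peak of either library.

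HSPA8 also combined this height with a very high local background. The background was 671 in CDCA-treated cells, the third highest of that list, and 989 in control cells, the highest of that list. Fold enrichment was 19.2 in CDCA-treated cells and 15.3 in control cells. Among peaks with a background of at least 100, this fold was the 18th highest of 131 CDCA peaks (median 9.62) and the 35th highest of 143 control peaks (median 9.90). The lists were scaled and called separately, so whether methylation changed cannot be measured from these values. More HSPA8 RNA and more methylation per copy cannot be told apart from height alone.

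DNAJB1, the J-domain protein that activates the ATPase of Hsp70, carried the other shared site. It spanned 14626346 to 14626793 on chromosome 19 in CDCA-treated cells and 14626346 to 14626817 in control cells, so both began at the same base. The summits were 30 bp apart, 1.5 kb (CDCA) and 1.6 kb (control) from the 3′ edge of the span of 5 kb. It held 463 fragments (422 to 507) over a background of 34 in CDCA-treated cells, and 304 fragments (271 to 340) over a background of 27 in control cells. Its −log10 q was 163 in CDCA-treated and 155 in control cells, which placed it at percentile 94.7 of each list. Its fold was 8.49 in CDCA-treated and 9.40 in control cells, at percentiles 48.7 and 47.8, so this site ranked high by significance and in the middle by fold.

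HSPH1 (Hsp110), the nucleotide exchange factor of Hsp70, had listed peaks in both libraries at different places. In CDCA-treated cells 1 peak was listed, at 31717771 to 31718034 on chromosome 13, with 66 fragments (51.0 to 84.0), a fold of 7.58 and a −log10 q of 23.0. In control cells 2 peaks were listed. The one at 31715138 to 31715752 had 114 fragments (94.0 to 137), a fold of 11.2 and a −log10 q of 67.4. The one at 31724079 to 31724449 had 119 fragments (98.6 to 142), a fold of 17.3 and a −log10 q of 90.8. The CDCA peak lay between them, 2018 bp from the first and 6044 bp from the second. Peak numbers rose along each chromosome, and the 2 control peaks were numbered 27231 and 27234, so numbers were skipped between them. Between the listed peaks on either side of the gene, 7 numbers were skipped in each list. Whether a skipped number stood for a control peak at the CDCA site was not tested. Both control peaks stood higher in their own list (percentiles 89.0 and 91.6) than the CDCA peak did in its list (71.7). HSPH1 was the only one of the 8 genes with more listed peaks in control than in CDCA-treated cells.

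HSPA1A and HSPA1B, neighbouring genes that encode the stress-inducible Hsp70, had 1 peak each in CDCA-treated cells and none in control cells. The HSPA1A peak spanned 31783311 to 31783556 on chromosome 6 and the HSPA1B peak 31795487 to 31795701. Both summits lay near the 5′ edge, 0.5 kb into the HSPA1A span of 3 kb and 0.7 kb into the HSPA1B span of 4 kb. As span edges were rounded to 1 kb, these distances do not show that the summits lie at different places in the 2 genes. HSPA1A had 98 fragments (79.6 to 119) over a background of 8, a fold of 7.08 and a −log10 q of 30.8. HSPA1B had 28 fragments (18.6 to 40.5) over a background of 2, a fold of 6.30 and a −log10 q of 8.79. Both folds were close to 6, the lowest of either list. HSPA1A stood at percentile 79.7 of the CDCA list by −log10 q and 25.1 by fold, and HSPA1B at 18.6 by −log10 q and 8.47 by fold.

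The HSPA1A and HSPA1B peaks are uncertain as separate sites. The genes are known as near-identical copies, although only the windows before their start sites were compared here, not the sequences beneath the peaks. How reads that match both were placed is not given in the sources used here. HSPA1L also neighbours HSPA1A, and the lists do not tell strands apart. Between the control list's listed peaks at 31779194 to 31779502 and at 31810368 to 31810603, which enclose both genes, 1 peak number is skipped. As peak numbers rose along each chromosome, a skipped number falls between its listed neighbours but has no exact position. Whether this one stood for a peak in HSPA1A or HSPA1B was not tested. In the CDCA list the HSPA1A and HSPA1B peaks were numbered 78116 and 78119, so numbers were skipped between them too.

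**Figure D2:**
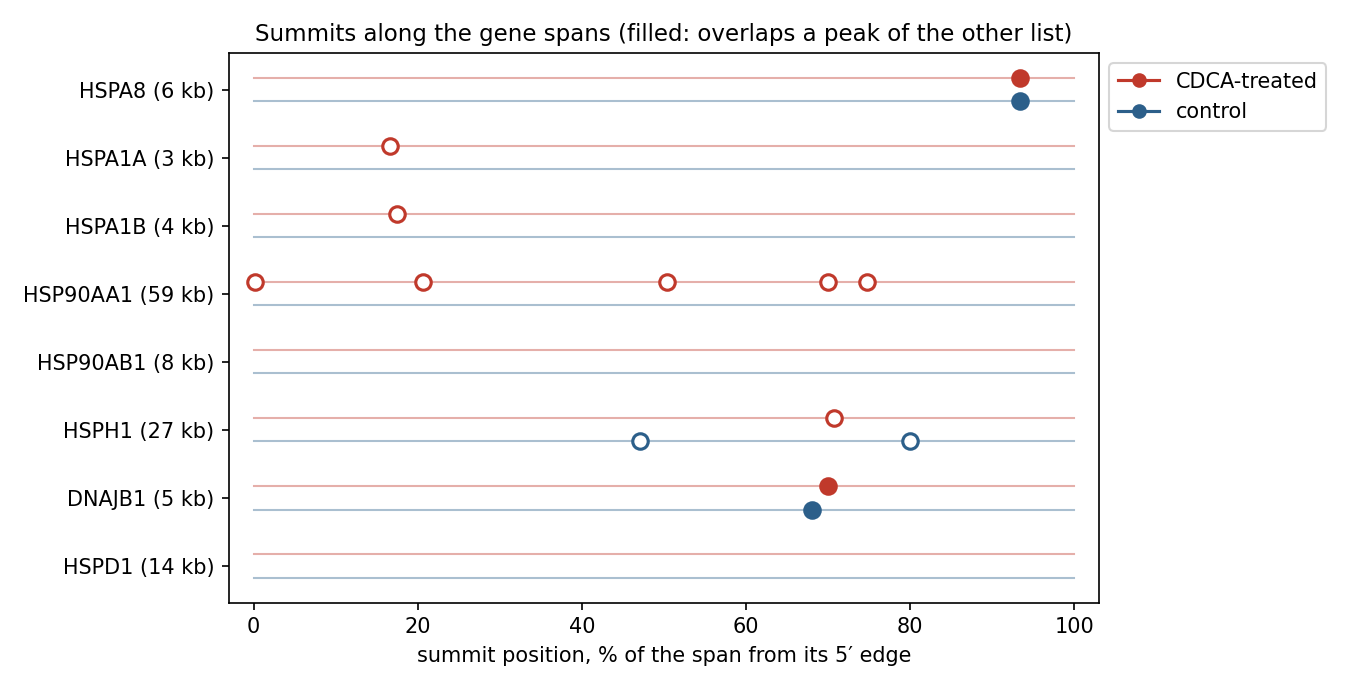
Summit positions as a percentage of each gene span, counted from its 5′ edge, with the CDCA-treated row above the control row for each gene. Filled points overlap a peak of the other list. HSPA8 and DNAJB1 coincide between conditions, HSPA1A and HSPA1B lie toward the 5′ edge, and the 5 HSP90AA1 summits are spread from 14.9 to 58.9 kb from the 3′ edge.

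HSP90AA1, the stress-inducible cytosolic Hsp90, had 5 peaks in CDCA-treated cells and none in control cells. They held between 16 and 44 fragments, were 200 to 239 bp long, and stood over backgrounds of 0.746 to 1. The strongest lay at 102561826 to 102562064 on chromosome 14, with 44 fragments (32.0 to 59.1), a fold of 16.7 and a −log10 q of 31.9. The next, at 102564597 to 102564798, had 32 fragments, a fold of 10.7 and a −log10 q of 17.4. Another, at 102593647 to 102593856, had 28 fragments, a fold of 10.8 and a −log10 q of 15.7. The weakest were at 102576180 to 102576379 and 102605733 to 102605937, with 16 and 17 fragments and folds of 6.43 and 6.80, and both had a −log10 q of 6.95. The strongest and the next exceeded the CDCA list's medians of fragments, fold and −log10 q, while the weakest pair stood near 15 fragments, the lowest summit of that list.

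The place of these 5 peaks within HSP90AA1 differed from that of the HSPA8 and DNAJB1 sites. The span of 59 kb includes a long upstream part used by a longer isoform, while the abundant mRNA is known to start from an inner site near the 3′ end, the one whose promoter is shown above. All 5 summits lay at least 14.9 kb from the 3′ edge. On GRCh38.p14 the window before the inner start was 102087045 to 102087294 and that before the outer start 102139750 to 102139999. Most of the span of 59 kb thus lies between the inner and outer starts. If the outer start is near the 5′ edge of the hg19 span, all 5 summits lie before the inner start, outside the abundant mRNA. Of the 5, 4 stood at the lowest background of the CDCA list, a level at which 36.7% of all CDCA peaks stood. No other chaperone peak stood at the lowest background of its list, and none of the 4 control peaks did, against 32.8% of all control peaks. The nearest control peaks were 22469 to 52027 bp away. Between the listed peaks on either side of the gene, 6 numbers were skipped in the CDCA list and 9 in the control list.

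HSP90AB1, the constitutive cytosolic Hsp90, and HSPD1 had no listed peak within their spans, 44214000 to 44222000 on chromosome 6 (8 kb, plus strand) and 198351000 to 198365000 on chromosome 2 (14 kb, minus strand). For HSP90AB1 the nearest listed CDCA summits were 7.4 and 9.8 kb outside the span, and the nearest control summits 103.8 and 46.1 kb. For HSPD1 they were 12.1 and 32.3 kb outside in CDCA-treated cells and 26.4 and 44.7 kb outside in control cells. Numbers were skipped between these neighbours in both genes, 4 in CDCA and 5 in control around HSP90AB1, and 3 in CDCA and 7 in control around HSPD1. What a skipped number stands for is not given in the sources used here, and absence from a list does not show that the RNA lacked m6A. Over all 8 spans, the closest summits outside were 3.5 kb from HSP90AA1 in CDCA-treated cells (fold 6.09, −log10 q 8.79) and 3.7 kb from HSPA1A in control cells (fold 26.0, −log10 q 69.9). The summit nearest to an edge from inside was an HSP90AA1 summit, 0.1 kb within the 5′ edge. WDR20 is the next RefSeq gene on that side. With span edges rounded to 1 kb and no strand in the lists, whether that peak belongs to HSP90AA1 was not tested. Widening every span by 1 kb added no peak.

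Local background was set beside sharing as a description, since the genes were chosen with peak results known and nothing particular to them can be read from these counts. A background of at least 10 was found under 2 of 10 chaperone peaks in CDCA-treated cells, against 6.77% of all CDCA peaks, and under 2 of 4 in control cells, against 6.56% of all control peaks. These were again HSPA8 and DNAJB1, and both were shared. Below that level, 0 of 8 CDCA and 0 of 2 control chaperone peaks had a partner. Over the whole lists, sharing rose with background. In the CDCA list the shared portion was 7.78% at the lowest background, 20.1% above it and below 5, 58.8% from 5 to 10, 79.7% from 10 to 100 and 84.0% at 100 or more. In the control list it was 6.79%, 14.5%, 43.7%, 73.3% and 87.4% over the same ranges. The HSPA1A peak, over a background of 8, and both HSPH1 control peaks, over 7.88 and 5, thus lay where 58.8% of CDCA and 43.7% of control peaks had a partner, and they had none.

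**Figure D3:**
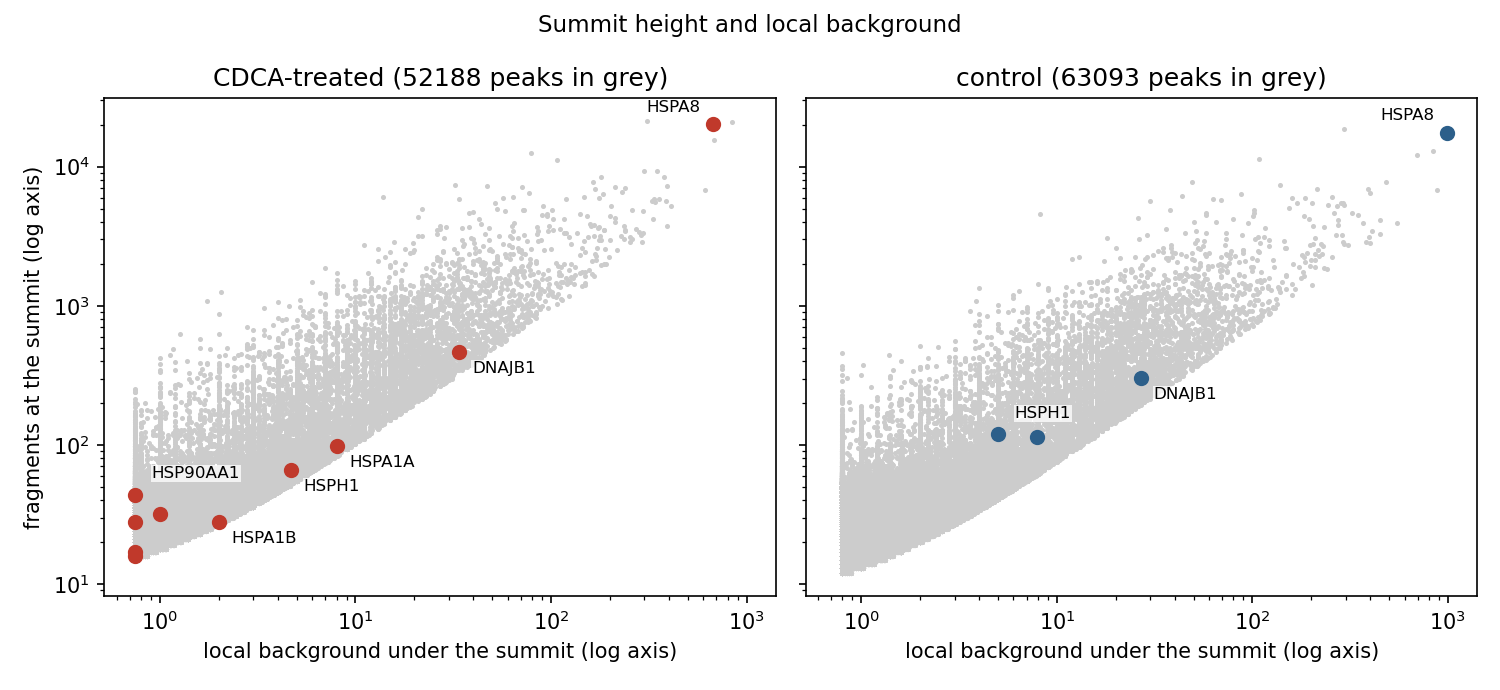
Fragments at the summit against local background, both on log axes, for all peaks (grey) and the chaperone peaks (coloured) of CDCA-treated cells (left) and control cells (right). HSPA8 lies at the upper right of both panels, with 20169 fragments over 671 in CDCA-treated cells and 17584 over 989 in control cells. The HSP90AA1 peaks lie at the lower left of the CDCA panel, with 16 to 44 fragments.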

How the data were processed

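m6A immunoprecipitates of GES-1 RNA were sequenced, and the authors deposited 1 peak list per library. TopHat2 2.0.13, MACS2 2.1.0 and hg19 appear, without a role, in the submitters' processing notes. Input and filters: not given in the sources used here. Per the file headers, the deposited values are the height (a signal at the summit), −log10 of a p-value and of a q-value, and fold enrichment (a ratio). Read depth is unknown. The weakest listed summits held 15 (CDCA) and 12 (control) fragments.

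Summits were assigned to 8 hg19 spans, and peaks of the other list overlapping by at least 1 bp were partners. Heights were whole multiples of 0.640 (CDCA) and 0.862 (control), within 0.02 steps plus rounding. Background was (height + 1)/fold − 1, a form checked with a Poisson tail, which came within 10% of the listed −log10 p for 100% of peaks with a value below 200 in both lists. Peaks to be named were, for every gene, the strongest of either list with its partner and any of −log10 q at least 100 without one. The weaker HSPH1 control peak and 4 HSP90AA1 peaks fall outside this rule and were named after their values were seen.

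The genes, lists and alternatives were chosen with earlier results of these data known. Other chaperone genes, exons and sequences beneath peaks were not analysed here, for want of an hg19 annotation and genome in use. The overlap and span steps were tested on 5000 simulated peaks, and 100% were right. Python 3.11.15, numpy 2.4.6, pandas 2.3.3, scipy 1.17.1, Biopython 1.88 (global alignment) and matplotlib 3.10.9 were used.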

Additional observations from a re-analysis of the deposited data

How the results depend on the processing

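Of 121 recomputed values, 96 stayed within 1.5 times the reported one (shares: within their interval), 24 moved further and 1 changed sign. The excess of 6 CDCA over control peaks became 1 from a −log10 q of 20 upward, -2 from 50 upward, 1 at a fold of at least 10 and 1 without HSP90AA1. CDCA peaks numbered 5, 2, 4 and 5 under these, CDCA-only sites 3, 0, 3 and 3, and the covered CDCA length was 1607, 858, 1061 and 1583 bp, against 2639 bp. From a −log10 q of 50 upward, 100% of CDCA chaperone peaks were shared, and at a fold of at least 10 there was 1 shared site, since DNAJB1 dropped out. The median percentile of CDCA chaperone peaks, 65.7, became 42.2 from a −log10 q of 20 upward, 36.4 at a fold of at least 10 and 42.4 when ranked by fold. That of control, 93.2, became 55.4 from 50 upward. At each level of −log10 q or fold, percentiles were taken within the shortened list, so they do not compare directly with those of the full list. The median background of the CDCA chaperone peaks, 1.5, became 2.37 with no pseudocount, 8 without HSP90AA1 and 0.873 without HSPA1A and HSPA1B. Both omissions were chosen after seeing the data. Equal peak numbers, wider spans and other overlap rules moved nothing past these limits. Some values could not move. The CDCA list was the shorter, so equal peak numbers left it whole, and the omitted genes had no control peaks. The closest summit outside a span was 3.5 kb away, so widening by 1 kb could add none. The CDCA share, 20%, became 40% without HSP90AA1 and still counted as unmoved, since its interval was wide (2.52 to 55.6). No paired analysis was possible because there was 1 library per condition. The HSP90AA1 and HSPA1B peaks rested on 16 to 44 and on 28 fragments, which limits their precision.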
